A study of Mus musculus and Homo sapiens with 8 samples.

Results

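The 34 genes described here belong to the ATF4 stress programme and to the serine and folate one-carbon pathways that it feeds. They were chosen by name from what is known of the pathway, but with earlier results of these data at hand. All 34 were present among the 20296 genes listed for human KU812 cells and among the 17097 genes listed for mouse LSK cells. RNA was sequenced from 8 libraries in 4 groups of 2. KU812, an established human line from chronic myelogenous leukemia, was transfected with a control hairpin (shNC) or with a hairpin against ANP32B (shANP32B). LSK cells, the fraction of bone marrow named for lacking lineage markers and carrying Sca-1 and c-Kit, came from C57BL/6 mice that were wild type (WT) or lacked Anp32b (Anp32b-KO). The series title places the study in the repression of p53 by ANP32B in normal and leukemic stem cells. The labels give neither the age of the mice nor the allele or Cre behind the knockout, and they name no further hairpin, so effects of the hairpin other than on ANP32B cannot be told apart. Nothing in them states that the replicates came from different mice or cultures, and the p-values then reflect only library-to-library variation, part of which may be technical.

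ATF4 is a transcription factor whose translation rises when the initiation factor eIF2 is phosphorylated by kinases that sense amino acid shortage, haem shortage, double-stranded RNA or unfolded protein in the endoplasmic reticulum. It binds DNA with C/EBP partners and raises amino acid transporters, amino acid synthesis enzymes and tRNA synthetases, together with feedback inhibitors and pro-apoptotic factors. Serine made by PHGDH, PSAT1 and PSPH passes a carbon to folate through SHMT1 in the cytosol and SHMT2 in mitochondria, and the MTHFD enzymes then convert the folate-bound carbon for purine, thymidylate and formate supply.

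Library totals ran from 24416691 to 28209409 counts in KU812 cells and from 10549358 to 15683480 in LSK cells. All levels below are CPM (counts scaled to a common library size) by TMM, and 3 counts, taken as the floor, stood for 0.106 to 0.123 CPM in KU812 and 0.191 to 0.284 CPM in LSK cells; floors cover counting error only. ANP32B in KU812 was 250 and 286 CPM with shNC and 40.4 and 38.2 CPM with shANP32B, a log2 change of -2.77 (SE 0.12, edgeR quasi-likelihood adjusted p = 5.18e-08). Anp32b in LSK cells was 794 and 730 CPM in WT and 201 and 249 CPM in KO, a log2 change of -1.76 (SE 0.17, edgeR adjusted p = 0.148). Which part was deleted is not stated, so the remaining counts do not test the label. The replicate pair that differed most was WT, with a chi-square of 51.2 per degree of freedom against 8.13 to 21.1 for the other pairs. LSK libraries held Kit at 335 to 399 CPM, Flt3 at 441 to 492 CPM and Cd34 at 506 to 746 CPM. Ly6a, the gene of Sca-1, was lower, at 60.2 and 45.5 CPM in WT and 37.8 and 43.4 CPM in KO (log2 -0.38, not passing). Of the 8 gate and progenitor markers, 6 had log2 differences above 0 and 2 below. They also held transcripts of other cells: the neutrophil genes S100a9 (238 to 368 CPM) and Ngp (190 to 395 CPM) and the collagen gene Col1a1 (11.9 to 25.0 CPM). Of the T and NK cell list, Nkg7 was at 82.6 to 111 CPM and every other gene at most at 10.3 CPM (Cd8a). Among the latter were Klrb1c (3.53 to 4.23 CPM), Gzmb (1.12 to 4.92 CPM) and Cd3e (0.569 to 2.56 CPM). KU812 libraries held the basophil and mast cell genes FCER1A (594 to 788 CPM) and HDC (1092 to 1256 CPM) and the progenitor factor GATA2 (1176 to 1407 CPM), none of which passed between shNC and shANP32B. In such bulk RNA, fewer cells of a type and less RNA per cell cannot be told apart.

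The ATF4-binding sequence shared by members of the programme was looked up in mouse promoters, because only mouse sequences were used here. A C/EBP-ATF response element (CARE) was searched as TGATGNAA on both strands of the RefSeq promoter windows of GRCm38.p6, each 300 bases long, from 250 bases before to 50 bases after the gene start. Of the 34 members, 30 matched a window, and Eif4ebp1, Slc7a5, Aldh1l2 and Wars had no entry. The element was found in 11 of these 30 (Atf3, Nupr1, Trib3, Chac1, Vldlr, Slc7a11, Asns, Pycr1, Pck2, Aars and Gars), and 4.51% of the 27025 genes with a window hold it. The sites of 7 members are shown, from the transcription factors, stress effectors, transporters and amino acid synthesis genes and including Pck2, the one member with the element that fell in KU812 cells, as 30 bases on the gene's strand, 5′ to 3′, with the element in capitals; where it reads as its reverse complement, the match is on the opposite strand. In order they lie at chr1:191183425-191183454 (Atf3, minus strand), chr2:119351038-119351067 (Chac1, plus), chr19:27216809-27216838 (Vldlr, plus), chr3:50443661-50443690 (Slc7a11, minus), chr6:7693214-7693243 (Asns, minus), chr11:120643833-120643862 (Pycr1, minus) and chr14:55540152-55540181 (Pck2, plus).
Atf3: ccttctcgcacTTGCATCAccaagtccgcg
Chac1: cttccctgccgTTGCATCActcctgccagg
Vldlr: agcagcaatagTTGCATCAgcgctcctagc
Slc7a11: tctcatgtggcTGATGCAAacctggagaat
Asns: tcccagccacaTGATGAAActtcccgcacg
Pycr1: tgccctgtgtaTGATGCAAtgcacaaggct
Pck2: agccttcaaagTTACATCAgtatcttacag
Counted from the gene start, the first base of the element was at -110 in Atf3, -193 in Chac1, -200 in Vldlr, -66 in Slc7a11, -23 in Asns, and -103 in both Pycr1 and Pck2. In the Slc7a11 window a further match on the opposite strand follows at -47. Its stretch of 30 bases is not printed and overlaps the one shown. The palindrome TGACGTCA (cyclic AMP response element) was in 0 of the 30 windows and 2.03% of all genes, and the E-box CACGTG was in 3 (Nupr1, Aldh18a1 and Aars) and 8.09% of all genes. A match describes these letters in this window and does not show that a factor binds there.

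In KU812 cells, 7 of the 33 members tested fell with shANP32B and 0 rose. The enzymes SHMT1, SHMT2, MTHFD1 and MTHFD2 of the folate one-carbon pathway fell by a log2 of 0.51 to 0.57, the mTOR inhibitor DDIT4 fell 2.91-fold, and the mitochondrial carboxykinase PCK2 and the transcription factor CEBPB fell as well. The genes that make serine, the amino acid transporters and the tRNA synthetases among the members did not pass the test, and ATF4 itself did not. Over all 16529 genes tested, 9.06% fell and 7.53% rose (16.6% in either direction) at an edgeR adjusted p under 0.05, against 21.2% of the tested members that fell. The median log2 change of the members was -0.16, with 23 below 0 and 10 above, and that of all genes was 0.00. The groups did not overlap for 12 of the 33 (36.4%, against 58.5% of all genes), with 9 members below both controls (28.9% of all genes) and 3 above (29.5%). Cell type markers moved with the knockdown too. Of 11 basophil and erythroid markers, 1 rose (9.09%, against 7.53% of all genes), the mast cell protease CPA3 (log2 1.06). In the same list 1 fell (9.09%, against 9.06% of all genes), the fetal globin HBG2 (-0.52). Of 6 progenitor markers tested, 1 fell (16.7%), CD34 (-1.83), and 1 rose (16.7%), MECOM (0.78). Of 6 neutrophil and monocyte markers tested, S100A8 (2.54) and S100A9 (2.31) rose (33.3%, against 7.53% of all genes) and 0 fell. S100A8 was 0.930 and 1.38 CPM with shNC and 7.10 and 6.33 CPM with shANP32B. S100A9 was 0.644 and 0.773 CPM against 4.01 and 3.03 CPM. The list summed to 101 and 80.2 CPM with shNC and 99.2 and 77.9 CPM with shANP32B. Most of that sum was ITGAM (log2 -0.29, not passing), at 91.5 and 71.9 CPM with shNC and 76.5 and 57.1 CPM with shANP32B. Of 6 stromal and endothelial markers tested, KDR (1.67) and COL3A1 (2.98) rose (33.3%) and 0 fell. COL3A1 had 1 and 4 counts with shNC and 14 and 26 counts with shANP32B. Of 4 T and NK cell markers tested, NKG7 fell (-2.94, 25% of the list) and 0 rose. NKG7 was 1.07 and 2.03 CPM with shNC and 0.154 and 0.242 CPM with shANP32B. Of 2 B cell markers tested, 0 passed. The part of these markers in the members' values was not tested. NUPR1, a stress-induced chromatin factor, was too low to test, with 1 and 1 counts in shNC and 0 and 8 counts in shANP32B.

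**Figure D1:**
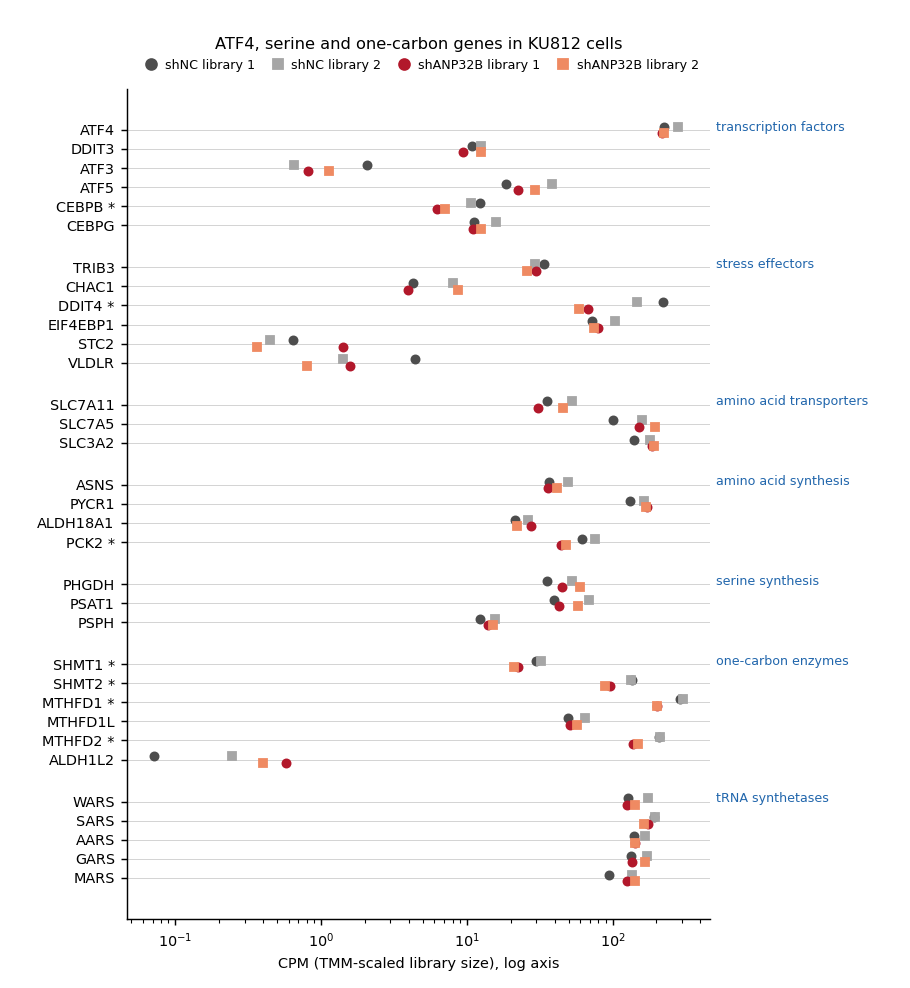
CPM (log axis) of the members in the 4 KU812 libraries, grouped by role; colour gives the group, circles are library 1 and squares library 2 of each, and an asterisk marks an edgeR adjusted p under 0.05. NUPR1 is left out because 1 library holds 0 counts. The 7 marked genes have both shANP32B libraries below both shNC libraries, and for most of the others the groups overlap.

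Of the 6 one-carbon enzymes, 4 fell (66.7%, against 9.06% of all genes) and 0 rose, and the median log2 change was -0.53. MTHFD1, the cytosolic enzyme with dehydrogenase, cyclohydrolase and synthetase activities, was 292 and 306 CPM with shNC and 201 and 202 CPM with shANP32B. MTHFD2, the mitochondrial dehydrogenase and cyclohydrolase, was 207 and 210 CPM against 137 and 149 CPM. SHMT2, the mitochondrial serine hydroxymethyltransferase, was 136 and 134 CPM against 95.5 and 88.6 CPM. Replicates of these genes lay close together and the groups were well apart. SHMT1, the cytosolic form, was 29.9 and 32.4 CPM against 22.5 and 21.1 CPM, again without overlap. The log2 changes were -0.57 (SE 0.10, adjusted p = 0.00226) for MTHFD1, -0.54 (SE 0.11, adjusted p = 0.004) for MTHFD2, -0.55 (SE 0.11, adjusted p = 0.00463) for SHMT2 and -0.51 (SE 0.15, adjusted p = 0.0309) for SHMT1, all by edgeR. MTHFD1 passed under all 8 alternatives run (adjusted p 4.55e-07 to 0.0145). Without shANP32B library 1, MTHFD2 (adjusted p = 0.0547, range over its alternatives 1.55e-05 to 0.0547) and SHMT1 (0.126) missed the threshold. Without shANP32B library 2, SHMT2 (0.0661, range 4.29e-05 to 0.0661) and SHMT1 (0.223, range 0.00521 to 0.223) missed it, and SHMT1 also missed it with library totals in place of TMM (0.0536).

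The remaining pair of one-carbon enzymes did not pass. MTHFD1L, the mitochondrial formate-producing synthetase, was 49.4 and 65.1 CPM with shNC and 51.0 and 56.9 CPM with shANP32B, so the knockdown libraries lay between the controls. ALDH1L2, which oxidises formyl-folate in mitochondria, had only 2 and 6 counts against 15 and 10 counts (log2 1.64, edgeR adjusted p = 0.235). In the mouse annotation Shmt2 (GRCm38 chr10:127517123-127522444, minus strand) overlaps Ndufa4l2 on the opposite strand, and the strand setting of the counting is not given. In KU812 cells NDUFA4L2 fell from a mean of 11.2 CPM to 1.04 CPM, while SHMT2 fell from 135 ± 1.55 CPM to 92.0 ± 4.83 CPM (SD, n = 2). The human layout of this pair of genes was not examined, and its part in the SHMT2 value was not tested.

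The 3 serine synthesis genes passed in neither direction, and in each the KU812 groups overlapped. PHGDH, which takes 3-phosphoglycerate into the pathway, was 35.6 and 52.6 CPM with shNC and 44.7 and 60.0 CPM with shANP32B (log2 0.25, SE 0.19, 95% confidence interval -0.15 to 0.65). PSAT1, the aminotransferase that follows, was 39.9 and 68.9 CPM against 42.6 and 57.8 CPM (log2 -0.11, interval -0.57 to 0.34). PSPH, the phosphatase that releases serine, was 12.4 and 15.7 CPM against 14.0 and 15.0 CPM (log2 0.05, interval -0.37 to 0.47). In all 3 genes the second library of each group was the higher one. The pseudogene PSPHP1 was listed with up to 341 counts in a library, so reads of PSPH may be split with it.

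**Figure D2:**
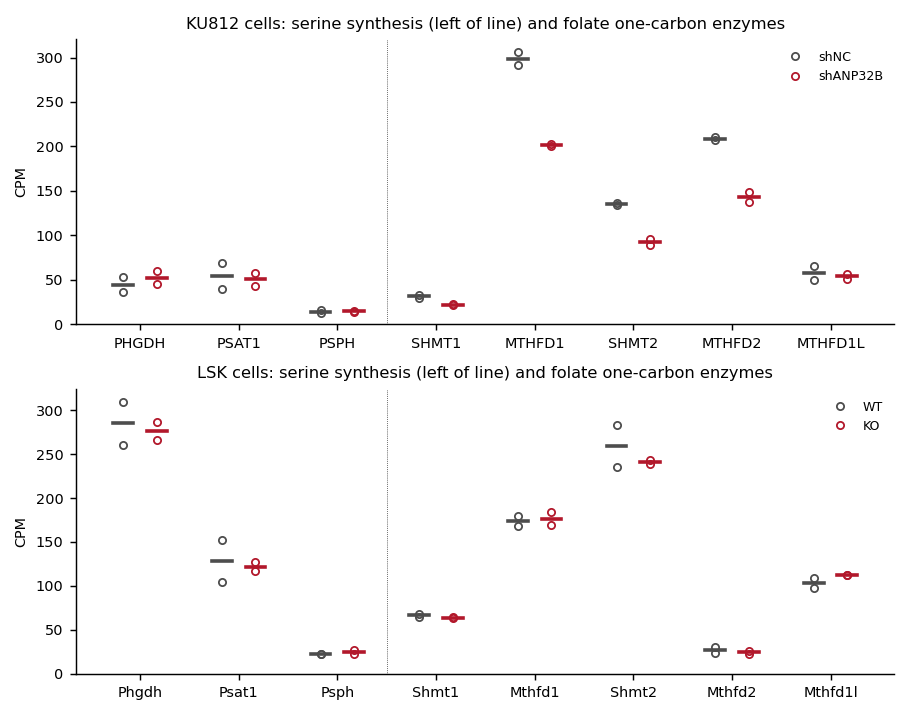
CPM in KU812 libraries (upper panel) and LSK libraries (lower panel) for the serine synthesis and one-carbon members except ALDH1L2. Points are libraries and a line gives each group mean. In KU812 cells MTHFD1, MTHFD2, SHMT2 and SHMT1 have no overlap between shNC and shANP32B, whereas PHGDH, PSAT1 and PSPH overlap.

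Among the 6 transcription factors tested, CEBPB fell and the other 5 did not pass. ATF4 was 226 and 281 CPM with shNC and 218 and 224 CPM with shANP32B (log2 -0.20, SE 0.12, edgeR adjusted p = 0.289); the knockdown libraries lay below both controls, but by less than the gap between the controls. These are mRNA levels, and ATF4 is controlled mainly in translation. CEBPB, a bZIP partner of ATF4 in myeloid cells, was 12.4 and 10.6 CPM against 6.25 and 7.10 CPM (log2 -0.78, SE 0.23, adjusted p = 0.0309). Its groups did not overlap, but its adjusted p was 0.0588 without shNC library 1, 0.205 without shANP32B library 1 and 0.0878 without shANP32B library 2 (range over all alternatives 0.00231 to 0.205). DDIT3, the pro-apoptotic factor CHOP, was 10.8 and 12.5 CPM against 9.38 and 12.5 CPM, so the groups overlapped (log2 -0.09). ATF5 and CEBPG, a further pair of bZIP factors, had log2 differences of -0.14 and -0.20. ATF3, a stress-induced repressor, was at 2.07 and 0.651 CPM against 0.81 and 1.13 CPM, with the first control library the highest.

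Of the 6 stress effectors, DDIT4 fell and the other 5 did not pass. DDIT4 (REDD1), an mTORC1 inhibitor induced by ATF4, p53 and hypoxia, was 223 and 146 CPM with shNC and 67.9 and 59.0 CPM with shANP32B, a log2 change of -1.54 (SE 0.17, edgeR adjusted p = 5.92e-05). Both knockdown libraries were far below the lower control, and the gene passed under all 8 alternatives (adjusted p at most 0.00029). A list of 12 hypoxia response genes moved with it: 7 fell (58.3%, against 9.06% of all genes) and 0 rose. The median log2 change of the list was -1.03. Its summed level was 1399 and 922 CPM with shNC and 646 and 552 CPM with shANP32B. In log2 terms the falls were -3.77 for the carbonic anhydrase CA9 (edgeR adjusted p = 1.73e-06), -3.43 for NDUFA4L2, a mitochondrial protein, -1.16 for the angiogenic factor VEGFA and -1.15 for the mitophagy receptor BNIP3. In the control group the first library was higher than the second for DDIT4 and for 12 of the 12 hypoxia genes. The part of the hypoxia genes in the DDIT4 value was not tested.

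The other effectors had overlapping KU812 groups. TRIB3, a pseudokinase that feeds back on ATF4, was 33.9 and 29.3 CPM with shNC and 29.7 and 26.1 CPM with shANP32B. CHAC1, which degrades glutathione, was 4.29 and 8.02 CPM against 3.97 and 8.67 CPM, so the libraries split by number and not by group. EIF4EBP1, a repressor of cap-dependent translation, was 72.8 and 104 CPM against 79.4 and 74.8 CPM. VLDLR, a lipoprotein receptor, was 4.43 and 1.42 CPM against 1.58 and 0.807 CPM (log2 -1.29, SE 0.55, edgeR adjusted p = 0.125), and the secreted glycoprotein STC2 stayed between 0.363 and 1.43 CPM.

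Of the 4 members for synthesis of other amino acids, PCK2 fell. PCK2, which makes phosphoenolpyruvate in mitochondria and can supply serine synthesis from below, was 61.9 and 76.3 CPM with shNC and 44.0 and 48.0 CPM with shANP32B (log2 -0.59, SE 0.14, edgeR adjusted p = 0.011). The groups did not overlap, and the adjusted p was 0.0821 without shANP32B library 1 (range 5.2e-06 to 0.0821). Of the 7 members that fell in KU812 cells, Pck2 was the one whose mouse promoter window held the CARE letters printed above. Human promoters were not examined, sequence outside the 300 bases was not searched, and in mouse LSK cells Pck2 did not fall (log2 0.17, not passing). A part of the element in the PCK2 value was not tested. ASNS, asparagine synthetase, was 36.7 and 49.6 CPM against 35.8 and 41.6 CPM (log2 -0.16). PYCR1 and ALDH18A1, both of proline synthesis, had log2 differences of 0.20 and 0.06.

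Amino acid transporters and tRNA synthetases passed in neither direction in KU812 cells. SLC7A5, the light chain of the leucine transporter LAT1, was 101 and 158 CPM with shNC and 151 and 194 CPM with shANP32B (log2 0.41, SE 0.18, edgeR adjusted p = 0.13). Its partner SLC3A2 was 139 and 180 CPM against 187 and 193 CPM (log2 0.25, adjusted p = 0.205), with both knockdown libraries above both controls. SLC7A11, the cystine transporter, was 35.4 and 52.5 CPM against 30.9 and 46.0 CPM (log2 -0.19). The pseudogene SLC7A5P2 was listed with up to 85 counts. Log2 differences of the synthetases were -0.19 for SARS, -0.17 for WARS, -0.12 for AARS, -0.03 for GARS and 0.22 for MARS.

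How many members passed in KU812 cells depended on which control library was used. The first and the second library of a group differed in the same direction for most members, where the numbers are only the libraries' names in the labels: the second was the higher one in both groups for 20 of 33 members (60.6%), against 26.6% of 16408 genes with counts in all 4 libraries. The median log2 of second over first library was 0.32 in shNC and 0.12 in shANP32B for the members, and -0.66 and -0.15 for the hypoxia list. Without shNC library 1, 12 members fell and 0 rose: ATF4 (-0.35), ATF5 (-0.58), EIF4EBP1 (-0.44), SLC7A11 (-0.45), PSAT1 (-0.46) and WARS (-0.39) were added in log2 terms and CEBPB was lost. Without shNC library 2, 13 passed, of which 5 rose: SLC7A5 (0.76), SLC3A2 (0.44), PYCR1 (0.36), PHGDH (0.55) and MARS (0.49); VLDLR (-1.90) was added to the members that fell. Without shANP32B library 1, 5 passed (DDIT4, VLDLR, SHMT2 and MTHFD1 lower, SLC7A5 higher), and without shANP32B library 2, 4 passed (DDIT4, PCK2, MTHFD1 and MTHFD2, all lower). DDIT4 and MTHFD1 passed in each of these 4 subsets.

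**Figure D3:**
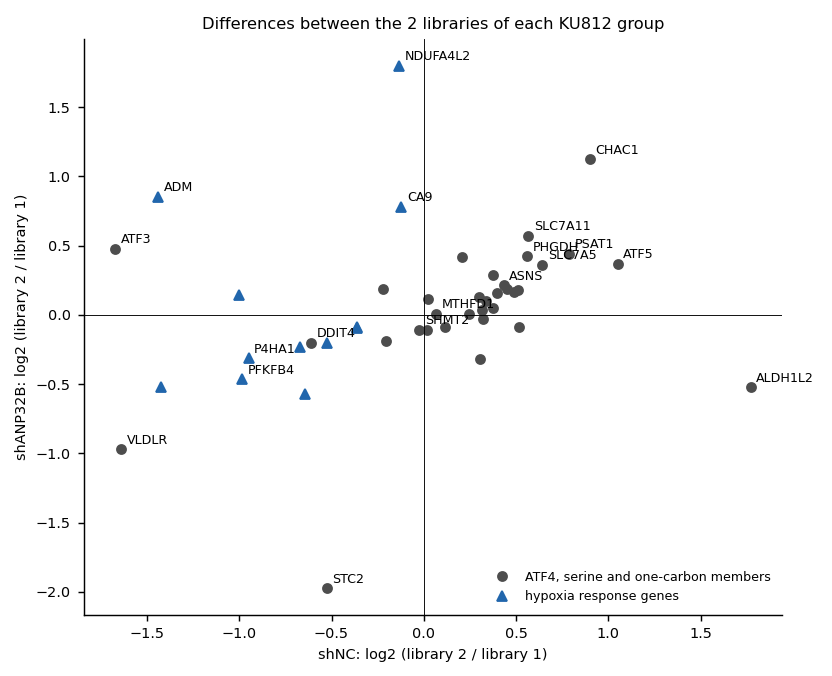
Log2 ratio of the second to the first library within shNC (x axis) and within shANP32B (y axis) in KU812 cells; circles are members and triangles the hypoxia genes. The upper right corner, with both ratios above 0, holds 20 of 33 members and 0 of the 12 hypoxia genes.

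The genes that set ATF4 translation passed in KU812 cells at about the rate of all genes. Of 14 genes for the eIF2 kinases, eIF2B and the eIF2 phosphatase, 2 fell (14.3%, against 16.6% of all genes in either direction) and 0 rose (median log2 -0.05). PPP1R15B, the constitutive subunit of that phosphatase, went from 156 ± 0.254 to 93.7 ± 3.84 CPM (SD, n = 2; log2 -0.74, edgeR adjusted p = 0.000654), and the haem-regulated kinase EIF2AK1 from 237 ± 0.366 to 152 ± 6.82 CPM (log2 -0.64, adjusted p = 0.00131). The eIF2B subunits EIF2B2 (0.37) and EIF2B4 (0.30) did not pass. Of 13 further ATF4 targets tested, 4 fell (30.8%, against 9.06% of all genes) and 1 rose (7.69%, against 7.53%). Their median log2 was -0.31. BCAT1, the cytosolic branched-chain aminotransferase, was 425 and 422 CPM with shNC and 188 and 216 CPM with shANP32B (log2 -1.07, adjusted p = 3.3e-05). The glutamine transporter SLC38A2 was 272 and 287 CPM against 137 and 146 CPM (log2 -0.98, adjusted p = 5.42e-05). CTH, of cysteine synthesis (-0.72), fell too, as did the glutamine transporter SLC1A5 (-0.37), which is named after its value was seen, and the neutral amino acid transporter SLC1A4 rose (0.57).

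Folate genes outside the 34 were taken from a separate list. Of its 19 folate and methionine cycle genes tested, 1 fell (5.26%, against 9.06% of all genes) and 0 rose (median log2 -0.06). The one that fell was MTR, methionine synthase, from 151 ± 5.40 to 103 ± 0.436 CPM (SD, n = 2; log2 -0.56, edgeR adjusted p = 0.00366). The mitochondrial isozyme MTHFD2L (0.53), the purine enzyme GART (-0.31) and thymidylate synthase TYMS (-0.31) did not pass. Of 14 other cytosolic tRNA synthetases, 1 fell (7.14%, against 9.06% of all genes), which was DARS (-0.40). The other 13 did not pass, among them IARS (-0.27), LARS (-0.24) and QARS (-0.23). Of 12 genes of the other arms of the unfolded protein response, 2 fell (16.7%, against 9.06% of all genes) and 2 rose (16.7%, against 7.53%). The chaperone HSP90B1 (-0.66) and the cochaperone DNAJB9 (-0.75) fell. The chaperone-like CRELD2 (0.59) and EDEM1 (0.44), which routes misfolded glycoproteins to degradation, rose.

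In LSK cells 0 of the 31 members tested passed, and 0 of 14598 genes (0%) passed at an edgeR adjusted p under 0.05. DESeq2 passed 0 members and 15 genes in all. At an unadjusted p under 0.05, 4 members passed (Atf5 and Cebpb higher, Ddit3 and Atf3 lower), against 4.5% of all genes, 2.29% higher and 2.21% lower. The median log2 difference of the members was 0.02, and that of all genes was -0.01. KO libraries lay above both WT libraries for 8 members (17.7% of all genes) and below both for 4 (15.6% of all genes), a share of 38.7% without overlap against 33.2% of all genes. Chac1 (11 and 7 counts in WT, 6 and 9 in KO), Stc2 (4 and 9, 2 and 5) and Aldh1l2 (1 and 5, 2 and 4) were too low to test.

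**Figure D4:**
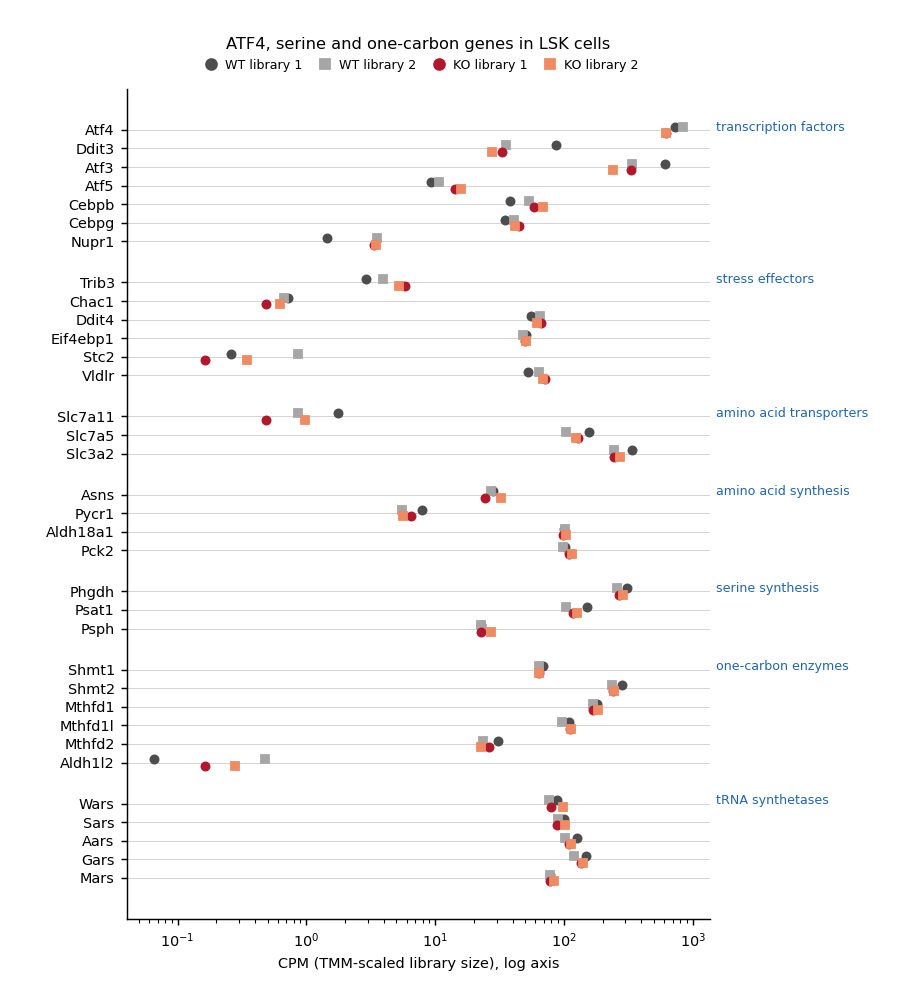
CPM (log axis) of the members in the 4 LSK libraries, grouped by role; colour gives the genotype, circles are library 1 and squares library 2. No member is marked as passing, and Ddit3 and Atf3 show the first WT library far above the other 3.

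The transcription factors held the largest differences among well-expressed members in LSK cells. Ddit3 was 87.0 and 35.2 CPM in WT and 33.3 and 27.5 CPM in KO (log2 -1.02, SE 0.37, edgeR adjusted p = 0.986). Atf3 was 611 and 338 CPM against 334 and 240 CPM (log2 -0.73, SE 0.29, adjusted p = 0.986). In both genes the first WT library was the highest by a wide margin, and the second WT library was just above the first KO library. Without the second WT library, Ddit3 (-1.52), Atf3 (-1.10) and Cebpb (0.75) passed, and without the first the log2 differences were -0.22 for Ddit3 and -0.24 for Atf3. In the mouse annotation Ddit3 overlaps Mars on the opposite strand, only at GRCm38 chr10:127296221-127296288. Reads of that stretch cannot be told apart where strand was not used. A second protein-coding gene also named Ddit3 (chr10:127290829-127293753) is listed on the same strand within the first (chr10:127290774-127296288). How the deposited counts treat these entries is not known.

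Atf4 was 727 and 846 CPM in WT and 622 and 619 CPM in KO (log2 -0.34, SE 0.16, edgeR adjusted p = 0.986), without overlap. Cebpb was 38.2 and 54.0 CPM against 59.1 and 69.4 CPM (log2 0.48, SE 0.19), and Atf5 was 9.31 and 10.8 CPM against 14.2 and 15.9 CPM (log2 0.59, SE 0.22). Both had KO libraries above both WT libraries. Trib3 was 2.88 and 3.91 CPM against 5.86 and 5.24 CPM (log2 0.71, SE 0.36), also without overlap. Markers of neutrophils and monocytes, cells in which Cebpb is abundant, were lower in both KO libraries for 9 of 10 genes, against 15.6% of all genes. The exception was Itgam (log2 0.24), higher in both KO libraries. At an unadjusted edgeR p under 0.05, 7 of the 10 were lower, against 2.21% of all genes. The list summed to 1396 and 1350 CPM in WT and 1038 and 920 CPM in KO. The 5 stromal and endothelial markers tested had log2 differences below 0, among them Sparc (-1.34) and Col1a1 (-0.85), and their list summed to 202 and 171 CPM in WT and 149 and 133 CPM in KO. None of these markers had an edgeR adjusted p under 0.05, and their part in these values was not tested.

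None of the tested serine and one-carbon genes passed between WT and KO LSK cells. Phgdh was 310 and 260 CPM in WT and 266 and 286 CPM in KO (log2 -0.05, SE 0.15). Shmt2 was 284 and 235 CPM against 239 and 244 CPM, and Mthfd1 was 179 and 168 CPM against 169 and 184 CPM. The groups of these genes overlapped. Mthfd2 was 31.0 and 23.6 CPM against 26.4 and 22.7 CPM (log2 -0.16, SE 0.20), and Shmt1 was 68.2 and 64.4 CPM against 63.7 and 64.1 CPM (log2 -0.05, SE 0.13). Ddit4 (55.1 and 65.5 CPM against 66.4 and 61.9 CPM) and Asns (27.9 and 27.1 CPM against 24.6 and 32.6 CPM) overlapped as well. Pck2 was 101 and 98.2 CPM against 109 and 116 CPM, higher in both KO libraries but with a log2 difference of only 0.17 (SE 0.13). The 5 tRNA synthetases had log2 differences from -0.03 to 0.11.

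Pathway genes outside the module gave 0 calls in each of the 6 lists in LSK cells by edgeR, where 1 gene (Bcat1) had an unadjusted p under 0.05, and 0 calls by DESeq2. In log2 terms, the genes with the smallest p of each list were Eif2b1 (-0.31) and Eif2s1 (-0.24) of the eIF2 list, Bcat1 (-1.38) and Herpud1 (-0.37) of the further ATF4 targets, and Cars (-0.28) and Eprs (-0.20) of the tRNA synthetases. They were Tyms (-0.31) and Amt (0.83) of the folate and methionine list, Dnajb9 (-0.31) and Atf6 (-0.25) of the unfolded protein response, and Pdk1 (0.12) and Ankrd37 (0.49) of the hypoxia list. Of these, Bcat1 was at a mean of 5.08 CPM in WT and 1.95 CPM in KO.

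Whether the effect differed between the experiments was tested in 1 model over the 8 libraries. Species, cell type and kind of perturbation differ together there and cannot be told apart. Of 33 members tested, 2 passed (edgeR adjusted p under 0.05), against 2.28% of 10768 genes, and 8 had an unadjusted p under 0.05, against 17.9%. The log2 effect on DDIT4 in KU812 minus that in LSK cells was -1.63 (95% confidence interval -2.21 to -1.05, adjusted p = 0.0118). For CEBPB the difference was -1.27 (interval -1.87 to -0.67, adjusted p = 0.0369), with -0.78 in KU812 cells and 0.48 in LSK cells. The DDIT4 call was lost without KO library 1 (adjusted p = 0.0613), without KO library 2 (0.0605) and without shANP32B library 2 (0.0618; range over its alternatives 9.34e-07 to 0.0618). The CEBPB call was lost without KO library 1 (0.0973), KO library 2 (0.177), shNC library 1 (0.115), shANP32B library 1 (0.138) or shANP32B library 2 (0.11; range 0.00609 to 0.177). The mouse loci are Ddit4 at GRCm38 chr10:59949669-59951834 and Cebpb at chr2:167688915-167690418, the latter overlapped by Tmem189 on the opposite strand.

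For the one-carbon enzymes that fell in KU812 cells, a difference between the experiments was not established. It was -0.59 for MTHFD1 (interval -0.94 to -0.24, edgeR adjusted p = 0.0811), -0.45 for SHMT2 (interval -0.83 to -0.06, adjusted p = 0.209), -0.46 for SHMT1 (interval -0.87 to -0.05, adjusted p = 0.227) and -0.38 for MTHFD2 (interval -0.85 to 0.08, adjusted p = 0.377). PCK2 differed by -0.76 (interval -1.18 to -0.34, adjusted p = 0.0621). Under DESeq2 both PCK2 (adjusted p = 0.0237) and MTHFD1 (0.0245) passed. DDIT3 differed in the other direction, by 0.93 (adjusted p = 0.331).

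**Figure D5:**
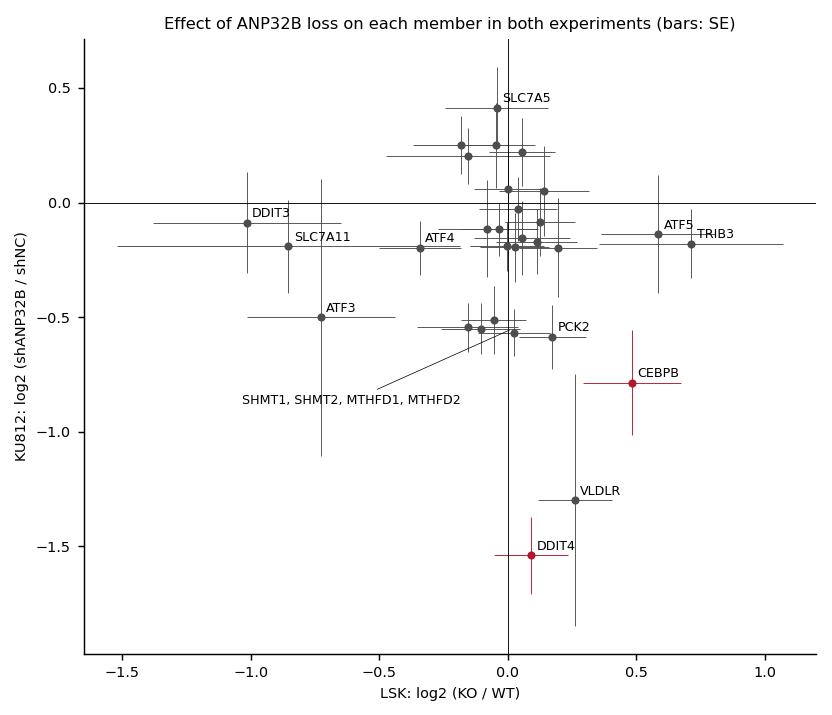
Log2 effect in LSK cells (x axis) and in KU812 cells (y axis) for members tested in both, with bars of 1 SE. Red points are those whose difference passed the interaction test. DDIT4 (-1.54 in KU812 and 0.09 in LSK cells) and CEBPB (-0.78 in KU812 and 0.48 in LSK cells) are the red points.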

How the data were processed

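The authors deposited whole-number gene counts, not normalized, in 1 table per library, per the file headers and values. Per the submitters' processing notes, HISAT2, TopHat, Cufflinks and DESeq were named with GRCm38 and GRCh38; not given in the sources used here were counter, annotation and strand setting. In either experiment the 4 libraries sum to 10 or more counts for each listed gene. Each experiment was fitted alone with edgeR 4.0.16 (R 4.3.3, limma 3.58.1): filterByExpr, TMM, quasi-likelihood test, Benjamini-Hochberg over all genes tested, threshold 0.05. The interaction used 10855 symbols shared in upper case, with TMM within species. The SE is the unmoderated coefficient divided by the square root of F, and log2 changes carry edgeR's default prior count. Alternatives were DESeq2 1.42.0, library totals, no filter, a threshold of 0.01, the replicate block and leaving out each library, where a lone library is assumed to vary like the other groups. The procedure was tested on simulated data. Of 1.5-fold changes it passed 34.3% in KU812, 2.99% in LSK cells and 7.46% in the interaction. Of 2-fold changes it passed 74.6%, 46.3% and 44.8%. Each of these rates rests on 67 changed genes. Of all genes it passed, 8 of 143 in KU812, 11 of 103 in LSK cells and 6 of 105 in the interaction were unchanged. Far fewer genes were changed in the simulation than the 2741 called in KU812 cells. The rate of passing depends on that number, so the KU812 rates need not hold for the data. The members and lists were chosen with earlier results of these data known. Named genes are all 34 members, ANP32B, the interaction calls, and of each other list up to 4 genes (KU812) and 2 genes (LSK) with the smallest p; SLC1A5, cell markers and genes named as overlapping or copies come in addition. Mouse loci come from GENCODE annotation of GRCm38 and promoter windows from RefSeq (GRCm38.p6).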

Additional observations from a re-analysis of the deposited data

Results flagged for a closer look

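Differences between the experiments were seen for DDIT4 and CEBPB. The effect on DDIT4 differed between KU812 and LSK cells by a log2 of -1.63 (edgeR interaction test, adjusted p = 0.0118): it was lower in both shANP32B libraries than in both shNC libraries, and WT and KO overlapped. The effect on CEBPB differed by -1.27 (adjusted p = 0.0369), with both knockdown libraries below their controls and both KO libraries above theirs. Both were picked out because the interaction test passed, and both calls were lost when single libraries were left out, as given above.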

How the results depend on the processing

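The 2 libraries per group limited the precision, as did a floor of 3 counts for the members with few counts. In KU812 cells 7 members passed with DESeq2 and without the filter, 6 with library totals, 4 at an adjusted p under 0.01, and 4 to 13 when 1 library was left out. In LSK cells the count was 0 under every alternative except leaving out 1 library (0 to 3). In the interaction it was 2 with library totals, without the filter and with TMM over all 8 libraries, 4 with DESeq2, and 0 to 4 when 1 library was left out. Same-numbered libraries share only a number in the labels: their deviations correlated at 0.116 over genes in KU812 and -0.069 in LSK cells. With a replicate block, 9 members passed in KU812 cells (VLDLR at -1.19 and SLC7A5 at 0.44 were added), 0 in LSK cells and 3 in the interaction (VLDLR was added, at -1.51); over all genes the block passed 4164 in KU812 (2741 without it), 15 in LSK (0 without it) and 367 in the interaction (246 without it). Some log2 differences of members that did not pass changed sign, and the cause was not tested. With library totals these were KU812 GARS (0.030) and LSK Slc7a5 (0.0068), Phgdh (0.0018), Sars (0.046) and Aars (0.013). LSK Aldh18a1 was -0.0076 with DESeq2, -0.0010 without the filter and -0.00076 with the replicate block. Leaving out 1 library in KU812 cells gave the ranges DDIT3 -0.33 to 0.10, ATF3 -1.10 to 0.57, ATF5 -0.58 to 0.47, CEBPG -0.43 to 0.055, CHAC1 -0.64 to 0.55, EIF4EBP1 -0.44 to 0.073, STC2 -0.59 to 1.36, SLC7A11 -0.52 to 0.11, ASNS -0.36 to 0.066, ALDH18A1 -0.11 to 0.21, PHGDH -0.012 to 0.55, PSAT1 -0.46 to 0.32, PSPH -0.11 to 0.22, MTHFD1L -0.28 to 0.12, WARS -0.39 to 0.062, AARS -0.24 to 0.0015, GARS -0.21 to 0.16 and MARS -0.019 to 0.49. In LSK cells the ranges were Nupr1 -0.0501 to 1.24, Ddit4 -0.032 to 0.22, Eif4ebp1 -0.017 to 0.069, Slc7a5 -0.31 to 0.29, Slc3a2 -0.40 to 0.062, Asns -0.16 to 0.24, Pycr1 -0.39 to 0.13, Aldh18a1 -0.042 to 0.0399, Phgdh -0.17 to 0.083, Psat1 -0.32 to 0.22, Shmt2 -0.24 to 0.034, Mthfd1 -0.037 to 0.083, Mthfd2 -0.34 to 0.056, Wars -0.0500 to 0.26, Sars -0.11 to 0.10, Aars -0.18 to 0.13, Gars -0.10 to 0.20 and Mars -0.00078 to 0.11. The ATF3 interaction ran from -0.38 to 1.29.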
